A study of Mus musculus with 12 samples.

Results

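The genes described here are the 10 that carry out MHC class I presentation: the heavy chains H2-K1, H2-D1, H2-T23 and H2-M3, their light chain B2m, the peptide transporter subunits Tap1 and Tap2, the loading factor Tapbp, the trimming peptidase Erap1 and the transactivator Nlrc5. They were chosen by name, without use of a measured value, from 46078 genes in the count table, and all 10 were found and passed the filter on low counts. RNA was sequenced from laser-captured spinal cord white matter of C57Bl6 mice in 4 groups of 3 pools, each pool holding tissue of 5 mice. Young naïve and young injured mice were 6 weeks old, and middle-aged naïve and middle-aged injured mice were 8 months old. Naïve mice had no lesion, and injured tissue was taken 72 h after lysolecithin, a detergent-like lipid toxic to myelin, had been injected into the white matter. No group had surgery or an injection without lysolecithin, so effects of the operation and of lysolecithin cannot be told apart. No group carried a transgene or drug treatment that the labels name, and a replicate is a pool, so the spread between single mice was not measured.

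MHC class I molecules show peptides from inside the cell on its surface, where cytotoxic T cells and natural killer (NK) cells read them. Proteasomes cut proteins into peptides, the TAP transporter carries these into the endoplasmic reticulum, ERAP1 trims them, and tapasin helps to load them onto a heavy chain paired with β2-microglobulin. In the healthy central nervous system, class I levels are low on most neural cells, and interferons and NF-κB raise them through short promoter elements, together with NLRC5, a transactivator of class I genes.

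These elements are shown for 3 of the genes, because promoters of the heavy chains and B2m are the textbook sites of this control. The sequences are RefSeq's, from build GRCm38.p6, and run 5′ to 3′ over the 250 bases before the annotated start. Capitals mark matches on either strand to 5 sets of letters: GGGATTCCC, a κB site; GAANNGAAA and GAAANNGAA, 2 spacings of interferon regulatory factor (IRF) sites; TGACG, the core of an X2 box; and CCAAT, the core of a Y box. The H2-K1 window lies on the minus strand at chr17:34000348-34000597, the H2-M3 window on the plus strand at chr17:37269984-37270233 and the B2m window on the plus strand at chr2:122147437-122147686.
H2-K1: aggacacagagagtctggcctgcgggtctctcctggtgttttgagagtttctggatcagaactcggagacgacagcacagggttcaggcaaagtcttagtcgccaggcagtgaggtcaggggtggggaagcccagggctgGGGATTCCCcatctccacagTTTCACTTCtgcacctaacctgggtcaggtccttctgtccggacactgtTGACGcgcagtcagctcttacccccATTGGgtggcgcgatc
H2-M3: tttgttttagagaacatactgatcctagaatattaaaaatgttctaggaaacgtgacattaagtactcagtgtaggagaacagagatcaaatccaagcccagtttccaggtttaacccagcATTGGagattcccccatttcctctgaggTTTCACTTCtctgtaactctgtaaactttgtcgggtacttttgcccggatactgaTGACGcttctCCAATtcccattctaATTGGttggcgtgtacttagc
B2m: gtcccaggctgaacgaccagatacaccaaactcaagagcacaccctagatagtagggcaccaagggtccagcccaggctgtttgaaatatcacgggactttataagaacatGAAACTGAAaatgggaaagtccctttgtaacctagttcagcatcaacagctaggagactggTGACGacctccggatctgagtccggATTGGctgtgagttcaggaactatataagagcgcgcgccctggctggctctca

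In the H2-K1 window the κB letters ended 102 bases before the start, the IRF letters 82, the X2 letters 37 and the Y letters 12. H2-M3 held the IRF letters, the X2 letters ending 42 bases before the start, and Y letters at 3 places, 2 of them after the X2 letters and 1 before the IRF letters. B2m held IRF, X2 and Y letters in the order of H2-K1, with the X2 letters ending 74 bases before the start. RefSeq promoters were at hand for 8 of the 10 genes, all but Tap2 and Nlrc5. The κB letters stood in 2 of the 8, H2-K1 and H2-D1, against 0.315% of 27026 promoters of the same length. Letters of either IRF spacing stood in 6 of the 8, against 12.6% of all promoters, and the 2 spacings can overlap each other. X2 letters stood in 5 of the 8, against 17.8%, and Y letters in 7 of the 8, against 34.5%. One IRF spacing, X2 and Y letters together stood in 4 of the 8, H2-K1, H2-D1, H2-M3 and B2m, against 0.699%. The 3 printed windows are all among these. Tap1, whose window is not printed, held X2 and Y letters and no κB or IRF letters. In the GENCODE annotation the windows of H2-D1, H2-T23, Tapbp and Erap1 overlap exons of the same gene over 146 to 250 bases and are not printed, while the printed windows of H2-M3 and B2m overlap their own exons over 14 bases and 1 base. A match of letters is a description, not a binding site. A single fixed κB sequence was searched, so windows without it can hold other κB sequences, left in small letters where printed. The letters were picked as known elements of class I promoters, so their shares among these genes are no test. The H2-K1 and H2-D1 windows also share sequence around the κB and IRF letters, so they are not separate cases.

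One naïve pool stood apart from the others. The total count ran from 9834447 to 12807437 over the pools, which puts a floor of 3 counts at 0.220 to 0.323 CPM, a count's share of the TMM-adjusted library total on the usual scale. Intervals and floors cover counting error only. Replicate 1 of the middle-aged naïve group was the highest of the 6 naïve pools for 24 of 30 listed interferon-stimulated genes, whose summed level was 634 CPM there and 130 to 239 CPM in the other naïve pools. Calls of the 10 genes that change without this pool, and several of the counts over lists that do, are given below with and without it. Oligodendrocyte markers, as the labelled white matter should have, summed to between 53009 and 101953 CPM in the naïve pools.

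H2-K1 and H2-D1, the classical class I heavy chains of the H2 region, rose strongly after injury at both ages. H2-K1 stood at 33.1, 40.5 and 31.7 CPM in the young naïve pools and 208, 273 and 262 CPM in the young injured pools. In middle-aged mice it stood at 53.4, 70.0 and 52.1 CPM in naïve pools and 471, 373 and 289 CPM in injured pools. Every injured pool lay above every naïve pool of either age, and the fitted level rose 7.06-fold in young and 6.46-fold in middle-aged mice. The log2 fold change was 2.82 (SE 0.19, adjusted p = 2.64e-08, quasi-likelihood F test of edgeR) in young and 2.69 (SE 0.19, adjusted p = 2.95e-08) in middle-aged mice.

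H2-D1 stood at 40.7, 46.3 and 41.6 CPM in young naïve pools and 256, 367 and 330 CPM in young injured pools. In middle-aged pools the values were 45.3, 55.4 and 52.4 CPM without and 565, 452 and 378 CPM with a lesion. The groups with and without a lesion did not overlap, and the log2 fold change was 2.89 (SE 0.17) in young and 3.19 (SE 0.17) in middle-aged mice. H2-K1 and H2-D1 share sequence: 22.8% of the 31-base stretches in transcripts of H2-K1 and 26.7% of those of H2-D1 occur in another gene. How the authors' counting treated such reads is not given in the sources used here, so the split between these heavy chains is uncertain.

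B2m, the light chain that every classical heavy chain needs, has no such shared stretch. It stood at 53.6, 65.9 and 53.1 CPM in young naïve and 367, 462 and 470 CPM in young injured pools, and at 83.2, 82.2 and 73.7 CPM in middle-aged naïve and 733, 558 and 481 CPM in middle-aged injured pools. Injured pools lay above all naïve pools. B2m rose 7.52-fold in young (log2 2.91, SE 0.17) and 7.42-fold in middle-aged mice (log2 2.89, SE 0.17), values within 1 SE of each other.

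H2-M3, a nonclassical heavy chain that presents N-formylated peptides, and H2-T23, which encodes Qa-1, the ligand of NK cell receptors of the NKG2 family, were less abundant per kilobase of exon (below). H2-M3 stood at 3.19, 1.81 and 1.29 CPM in young naïve, 16.7, 17.8 and 19.2 in young injured, 3.36, 6.51 and 2.88 in middle-aged naïve and 29.4, 27.6 and 20.5 CPM in middle-aged injured pools. Its log2 fold change with injury was 3.07 (SE 0.34) in young and 2.62 (SE 0.31) in middle-aged mice. H2-T23 stood at 2.73, 2.45 and 5.38 CPM in young naïve, 10.4, 20.7 and 15.8 in young injured, 2.59, 5.35 and 3.12 in middle-aged naïve and 30.0, 24.3 and 16.5 CPM in middle-aged injured pools. Its log2 fold change was 2.16 (SE 0.37) and 2.68 (SE 0.37). Neither gene's injured pools reached down to its naïve pools, and 24.5% of the 31-base stretches of H2-T23 are shared with other genes, most with the pseudogene H2-T-ps.

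**Figure D1:**
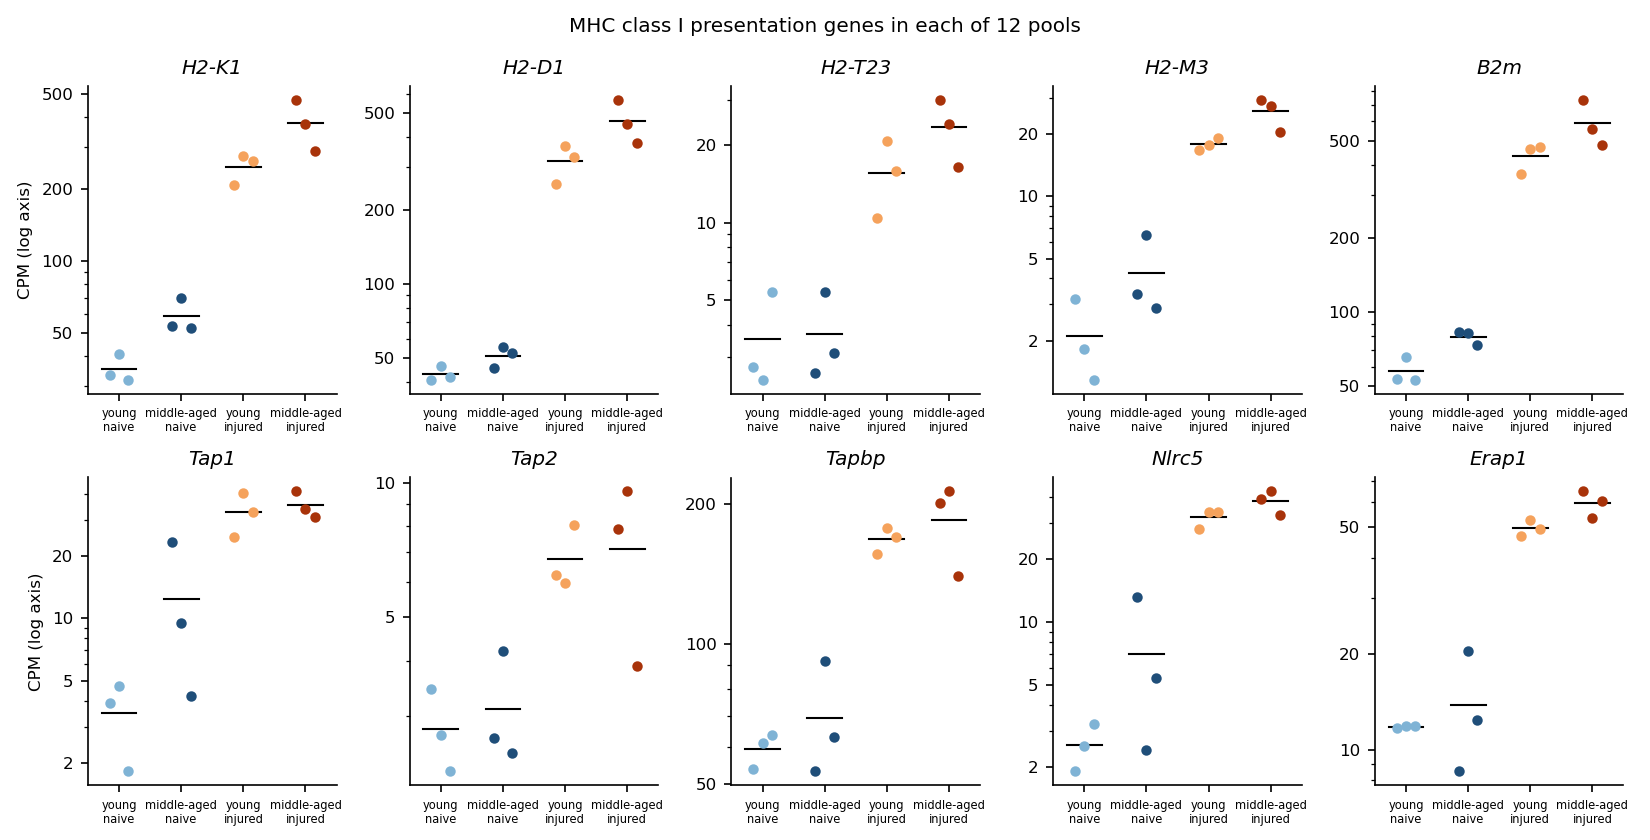
Level of each of the 10 genes in each of 12 pools, in CPM on a log axis with its own range per panel; points are pools of 5 mice and black lines are group means. Injured pools lie above naïve pools of the same age for every gene except Tap2, where a middle-aged injured pool at 3.89 CPM lies below a middle-aged naïve pool at 4.20 CPM.

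The genes that supply peptides also rose, by unequal amounts. Tap1, the first subunit of the TAP transporter, stood at 3.92, 4.71 and 1.83 CPM in young naïve pools and 24.6, 40.3 and 32.8 CPM in young injured pools, a log2 fold change of 3.20 (SE 0.49). In middle-aged mice it stood at 23.4, 9.55 and 4.24 CPM in naïve pools and 41.0, 33.7 and 30.9 CPM in injured pools, a log2 fold change of 1.51 (SE 0.44). The spread of the middle-aged naïve pools was wide, with replicate 1 at 244 counts (23.4 CPM, 95% exact interval 20.6 to 26.6). Without that pool, the middle-aged log2 fold change was 2.38 (SE 0.37).

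Tap2, the other TAP subunit, had the smallest change of the 10 genes in both ages. It stood at 3.46, 2.72 and 2.26 CPM in young naïve and 6.24, 5.97 and 8.06 CPM in young injured pools (log2 1.26, SE 0.34, adjusted p = 0.00643 from edgeR). The middle-aged values were 2.69, 4.20 and 2.48 CPM in naïve and 7.89, 9.58 and 3.89 CPM in injured pools (log2 1.20, SE 0.34, adjusted p = 0.00770), where the pools overlapped. Without middle-aged injured replicate 2, the middle-aged log2 fold change was 0.92 and its adjusted p 0.0512, past the threshold of 0.05.

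Tapbp, which encodes tapasin, had a smaller log2 fold change than any of the 4 heavy chains. It stood at 53.8, 61.3 and 63.7 CPM in young naïve, 156, 178 and 169 in young injured, 53.3, 91.8 and 63.1 in middle-aged naïve and 201, 213 and 140 CPM in middle-aged injured pools. The log2 fold change was 1.49 (SE 0.19) in young and 1.41 (SE 0.19) in middle-aged mice. Erap1, the aminopeptidase that trims peptides to fit the class I groove, stood at 11.7, 11.9 and 11.8 CPM in young naïve, 47.0, 52.6 and 49.3 in young injured, 8.54, 20.5 and 12.4 in middle-aged naïve and 64.7, 53.6 and 60.3 CPM in middle-aged injured pools. It rose by log2 2.07 (SE 0.23) and 2.11 (SE 0.23). Exons of Tap1, Tap2, Tapbp, Nlrc5 and Erap1 overlap those of a gene on the other strand over 78 to 904 bases, and without a stated strand setting reads there cannot be assigned to either gene. Tapbp also shares 149 exon bases with Zbtb22 on the same strand, where no strand setting separates the genes.

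Nlrc5, the transactivator of class I genes, had the largest injury effect of the 10 in young mice. It stood at 1.91, 2.54 and 3.23 CPM in young naïve and 28.0, 33.8 and 34.0 CPM in young injured pools, a log2 fold change of 3.65 (SE 0.44). In middle-aged mice it stood at 13.2, 2.41 and 5.36 CPM in naïve pools and 39.1, 42.5 and 32.8 CPM in injured pools, a log2 fold change of 2.44 (SE 0.39). The pools with and without a lesion did not overlap at either age. The highest naïve value was again replicate 1 of the middle-aged group, with 138 counts (95% exact interval 11.1 to 15.7 CPM). Without that pool, the middle-aged log2 fold change was 3.26 (SE 0.30).

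Over the 10 genes, 10 were called higher with injury in young mice, where 28.3% of all 15866 genes tested were called higher, and 10 in middle-aged mice, where 29.2% were. The median log2 fold change of the 10 was 2.85 in young and 2.53 in middle-aged mice, beside 0.0005 and -0.03 over all genes tested. Every injured pool exceeded every naïve pool for 10 of 10 genes in young mice, against 35.0% of all genes, and for 9 of 10 in middle-aged mice, against 31.5%. In bulk tissue, more cells of a type and more RNA per cell cannot be told apart. Pan-myeloid markers moved with these results: 6 of 6 were called higher at both ages, their summed level was 71.8 to 102 CPM in young naïve and 110 to 147 CPM in middle-aged naïve pools, and it was 1373 to 1394 and 1461 to 1950 CPM in the injured pools. Their part in the rise of class I genes was not tested. All 6 oligodendrocyte markers were called lower at both ages, where 26.3% and 29.3% of all genes were called lower in young and middle-aged mice.

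**Figure D2:**
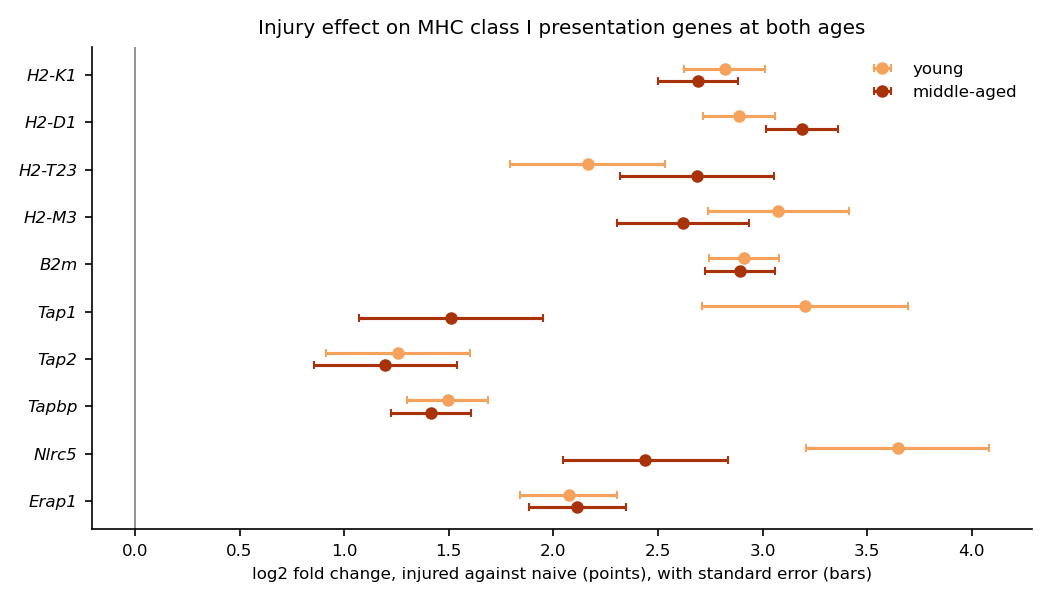
Log2 fold change of injured against naïve mice for the 10 genes, with points for the estimate and bars for its standard error, in young and middle-aged mice. All points lie to the right of 0, from 1.20 for Tap2 in middle-aged mice to 3.65 for Nlrc5 in young mice.

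Whether injury acted differently at the 2 ages was tested by the difference of the injury effects, middle-aged minus young. None of the 10 genes was called by edgeR, where 0.139% of all genes were called in either direction. By DESeq2 0 were called, and 1 of the 10 had an unadjusted p under 0.05 by edgeR. That gene was Tap1, with a difference of -1.69 on the log2 scale (95% interval -3.08 to -0.31, adjusted p = 0.381 from edgeR), which was -0.83 without middle-aged naïve replicate 1. For Nlrc5 the difference was -1.21 (95% interval -2.44 to 0.02) with that pool and -0.39 without it. The intervals were narrowest for B2m, with -0.02 (-0.49 to 0.45), H2-D1, with 0.30 (-0.19 to 0.79), and H2-K1, with -0.13 (-0.68 to 0.42). Intervals of this width leave room for unequal responses, and a p above the threshold does not show that the ages responded alike.

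Age was then compared without a lesion. In naïve white matter, 1 of the 10 genes, H2-K1, was called higher at the greater age, where 2.02% of all genes were called higher. Of the 10, 5 had an unadjusted p under 0.05 by edgeR. Counts of unadjusted p, and of calls by DESeq2 or other settings, are given throughout without a share over all genes. They are thus not read as more or fewer than over all genes. H2-K1 was 1.66-fold higher (log2 0.73, SE 0.19, adjusted p = 0.0433 from edgeR), and its lowest middle-aged pool, at 52.1 CPM, lay above its highest young pool, at 40.5 CPM. B2m also had every middle-aged pool above every young pool and was not called (log2 0.47, SE 0.16, adjusted p = 0.127). Such a separation occurred for 2 of the 10 genes, H2-K1 and B2m, against 7.77% of all genes. Pools overlapped for H2-D1, whose age difference was 0.25 (95% interval -0.10 to 0.60).

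The call of H2-K1 in naïve mice was close to the threshold. It was lost without young naïve replicate 1 (log2 0.69, adjusted p = 0.139), 2 (0.85, 0.0709) or 3 (0.67, 0.118) and without middle-aged naïve replicate 2 (0.58, 0.102). It was also lost without young injured replicate 1 (0.75, 0.0506), 2 (0.75, 0.0631) or 3 (0.75, 0.0651) or middle-aged injured replicate 2 (0.75, 0.0608), all from edgeR. In a fit of the naïve pools alone the adjusted p was 0.158 at a log2 fold change of 0.74. Pools left out thus moved the size of the difference little and the call often.

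Tap1 and Nlrc5 had the largest age differences among naïve pools and neither was called. Tap1 was higher by 1.80 (SE 0.49, adjusted p = 0.0580 from edgeR) and Nlrc5 by 1.46 (SE 0.45, adjusted p = 0.0920) on the log2 scale. Without middle-aged naïve replicate 1, the pool with the high interferon-stimulated genes, these were 0.94 (adjusted p = 0.174) and 0.64 (adjusted p = 0.263). DESeq2 called both, with adjusted p of 0.0291 and 0.0136. Tap1 was called by edgeR without middle-aged naïve replicate 3 (2.22, adjusted p = 0.00882), and Nlrc5 without middle-aged naïve replicate 2 (1.85, adjusted p = 0.00651). H2-M3, at 0.98 (SE 0.35), had an adjusted p of 0.151 and overlapping pools. For H2-T23, Tap2, Tapbp and Erap1 the age difference lay between 0.07 and 0.22, with 95% intervals that included 0.

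**Figure D3:**
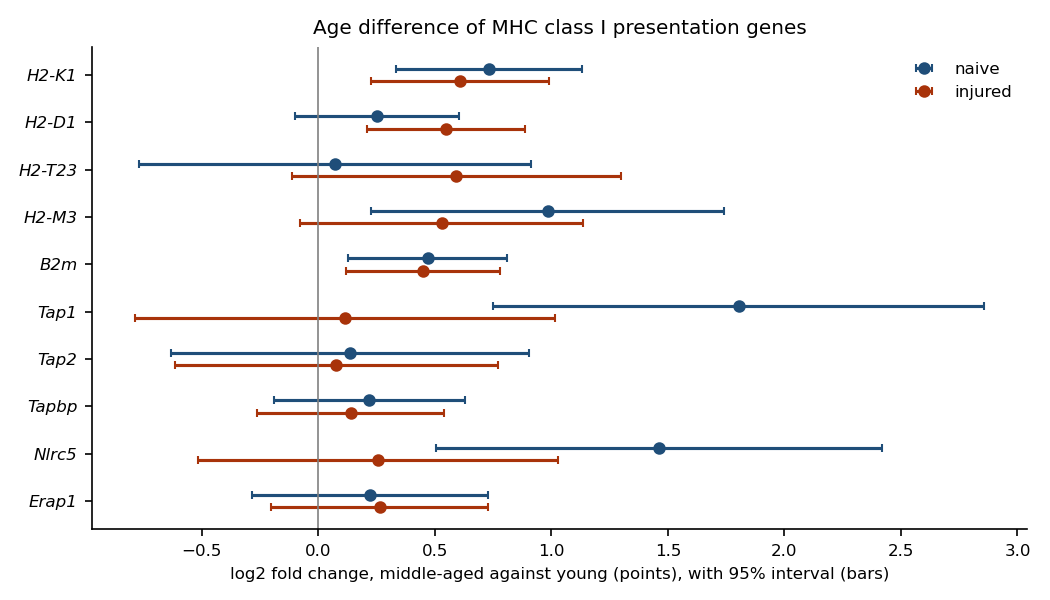
Log2 fold change of middle-aged against young mice for the 10 genes, with points for the estimate and bars for its 95% interval, in naïve and in injured white matter. The points lie at or above 0.07, and the intervals exclude 0 for H2-K1, H2-M3, B2m, Tap1 and Nlrc5 in naïve tissue and for H2-K1, H2-D1 and B2m in injured tissue; only H2-K1 in naïve tissue passed the adjustment over all genes.

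In the lesion, 0 of the 10 genes were called between ages by edgeR, where 0.240% of all genes were called higher in middle-aged mice. Of the 10, 3 had an unadjusted p under 0.05, and DESeq2 called 2, H2-K1 (adjusted p = 0.0488) and H2-D1 (adjusted p = 0.0427). Estimates were 0.61 for H2-K1 (SE 0.18, adjusted p = 0.145 from edgeR), 0.55 for H2-D1 (SE 0.16, adjusted p = 0.135) and 0.45 for B2m (SE 0.15, adjusted p = 0.253), all higher in middle-aged mice. Every middle-aged injured pool exceeded every young injured pool for 5 of the 10 genes, H2-K1, H2-D1, H2-M3, B2m and Erap1, against 11.1% of all genes. For Tap1, Tap2, Tapbp and Nlrc5 the pools overlapped and the differences were 0.08 to 0.26, and H2-T23, at 0.59 (95% interval -0.11 to 1.30), overlapped too. Middle-aged injured replicate 1 held the highest level of H2-K1, H2-D1, H2-T23, H2-M3, B2m, Tap1 and Erap1 among all pools, and without it the difference of H2-K1 was 0.43 and that of H2-D1 0.40.

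Levels of the genes were compared per kilobase of exon, as CPM per kb. The length is the union of exons over all annotated transcripts, 16 for H2-K1, 4 each for H2-D1 and H2-T23, and 1 each for H2-M3 and B2m. The order of genes with near levels depends on this choice of length. B2m was the most abundant transcript in every group, at 66.9 ± 8.43 (SD, n = 3 pools) CPM per kb in young and 92.7 ± 6.07 in middle-aged naïve mice, and at 503 ± 66.9 and 687 ± 150 after injury. In young naïve mice H2-D1 followed at 16.6 ± 1.17 and did not differ beyond its spread from Tapbp at 16.4 ± 1.41, and H2-K1 stood lower at 11.9 ± 1.61. In middle-aged naïve mice H2-K1, H2-D1 and Tapbp overlapped, at 19.9 ± 3.40, 19.8 ± 2.01 and 19.1 ± 5.52. In both injured groups the order was B2m, H2-D1, H2-K1, Tapbp and H2-M3, with H2-D1 at 123 ± 21.9 and H2-K1 at 84.4 ± 11.8 CPM per kb in young mice and 180 ± 36.7 and 129 ± 31.01 in middle-aged mice. Among those neighbours only H2-D1 and H2-K1 in middle-aged mice overlapped between pools. Nlrc5 was lowest of the 10 in both naïve groups, at 0.301 ± 0.077 in young and 0.825 ± 0.660 in middle-aged mice, and its pools overlapped there with those of the gene next above it. Tap2 was lowest in both injured groups, at 1.79 ± 0.300 and 1.88 ± 0.774 CPM per kb, below every pool of the gene next above it, Nlrc5.

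The ratio of H2-K1 to H2-D1 per kb differed between groups. It was 0.713, 0.768 and 0.669 in young naïve pools, 0.713, 0.653 and 0.699 in young injured pools and 0.731, 0.726 and 0.672 in middle-aged injured pools. In the middle-aged naïve pools it was 1.03, 1.11 and 0.872, above the other 9 pools. Injured minus naïve, the mean log2 ratio over both ages was -0.28, with a two-sided exact permutation p of 0.025 over 400 arrangements within ages, where 0.005 is the smallest possible. Within ages it was -0.06 in young mice (exact permutation p = 0.5) and -0.50 in middle-aged mice (exact permutation p = 0.1, the smallest that 3 pools against 3 allow). Without young naïve replicate 2 or middle-aged injured replicate 3, the exact permutation p over both ages was 0.05, with mean differences of -0.25 and -0.26. This ratio rests on the split of shared reads described above.

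The patterns over the 12 pools most like B2m were found among 13075 other genes by the root mean square (RMS) difference of log2 CPM after centring each gene on its mean. Among the 5 closest to B2m were Fli1 (0.203), Cmtm3 (0.210), Crtap (0.216) and Soat1 (0.222). Of the 10 genes themselves, H2-D1 (0.1496) and H2-K1 (0.158) were closer to B2m than any of these. Among the 5 closest to H2-K1 were Ifitm3 (0.208), Ldha (0.236), Plk2 (0.245) and Crtap (0.250). B2m lay at 0.158 from H2-K1, and H2-D1 at 0.238, farther than Ifitm3 and Ldha. The nearest to Tap1 were Parp9 (0.434), Pou2f2 (0.449), Dtx3l (0.456), Irf7 (0.462) and Usp18 (0.476). The other class I genes all lay farther from Tap1 than these, the closest being H2-M3 at 0.655, with B2m at 0.683. The points share libraries, and a small distance is no test.

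Genes around the class I pathway were taken from lists. Of 13 other class I heavy chains of the H2 region, 6 passed the filter, and 6 of 6 were called higher with injury at both ages, with a median log2 fold change of 1.85 in young and 1.499 in middle-aged mice. In young mice these were H2-Q7 (3.13), H2-Q4 (2.40), H2-Q6 (2.07), H2-T10 (1.64), H2-T22 (1.08) and H2-T24 (0.98). Between ages in naïve mice, H2-Q4 rose by 1.54 (SE 0.27, adjusted p = 0.00573 from edgeR) and H2-Q6 by 1.65 (SE 0.40, adjusted p = 0.0365). Without middle-aged naïve replicate 1, 7 genes of the list passed the filter, of which 6 were called higher and 1 lower with injury in middle-aged mice. In young mice 6 of these 7 were called higher and 0 lower. These heavy chains resemble each other and H2-K1, so that shared reads make single values uncertain. Of 5 class I-like genes outside the region, 4 were tested and 3 called higher with injury at both ages: Mr1, which presents vitamin metabolites to T cells (2.24 in young mice), Cd1d1, which presents lipids (1.75), and Hfe, an iron regulator (1.25). The fourth, Fcgrt, the neonatal Fc receptor, had values of 0.51 and 0.05. Mr1 (0.80) and Hfe (0.74) were also called higher in middle-aged than young naïve mice, and neither was without middle-aged naïve replicate 1 (0.72, adjusted p = 0.0721, and 0.62, adjusted p = 0.0822, from edgeR).

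The proteasome subunits split by kind. All 5 genes of the immunoproteasome and of the PA28 activator were called higher with injury at both ages, with a median of 2.52 in young and 2.07 in middle-aged mice. Psmb8, which encodes the immunosubunit LMP7, stood at 1.82, 1.81 and 2.15 CPM in young naïve and 22.6, 32.8 and 26.7 CPM in young injured pools (log2 3.82, SE 0.27). Psmb9 (3.45), Psme1 (2.52), Psme2 (1.43) and Psmb10 (1.26) followed. Of the 3 constitutive catalytic subunits that immunosubunits replace, 0 were called in young mice, with Psmb6 at 0.31, Psmb5 at -0.05 and Psmb7 at -0.31, and 1, Psmb6, was called higher in middle-aged mice (0.45), a call lost without middle-aged naïve replicate 1 (0.38, adjusted p = 0.118 from edgeR). Between ages in naïve mice Psmb8 rose by 1.46 (adjusted p = 0.0117 from edgeR) and by 1.43 without middle-aged naïve replicate 1, and Psme1 rose by 0.85 (adjusted p = 0.0331). Of 7 folding, loading and trimming partners, 6 were called higher with injury at both ages, among them the chaperone gene Calr (1.66 in young mice), the disulfide isomerase gene Pdia3 (1.39) and Uggt1 (1.37), and the lowest of those called was Canx (0.35). Bcap31 was at -0.06 and 0.05. Without middle-aged naïve replicate 1, 5 of the 7 were called in middle-aged mice, Tapbpl being lost (0.81, adjusted p = 0.0888 from edgeR), and Uggt1 was called higher with age in naïve mice (0.80, adjusted p = 0.0384).

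**Figure D4:**
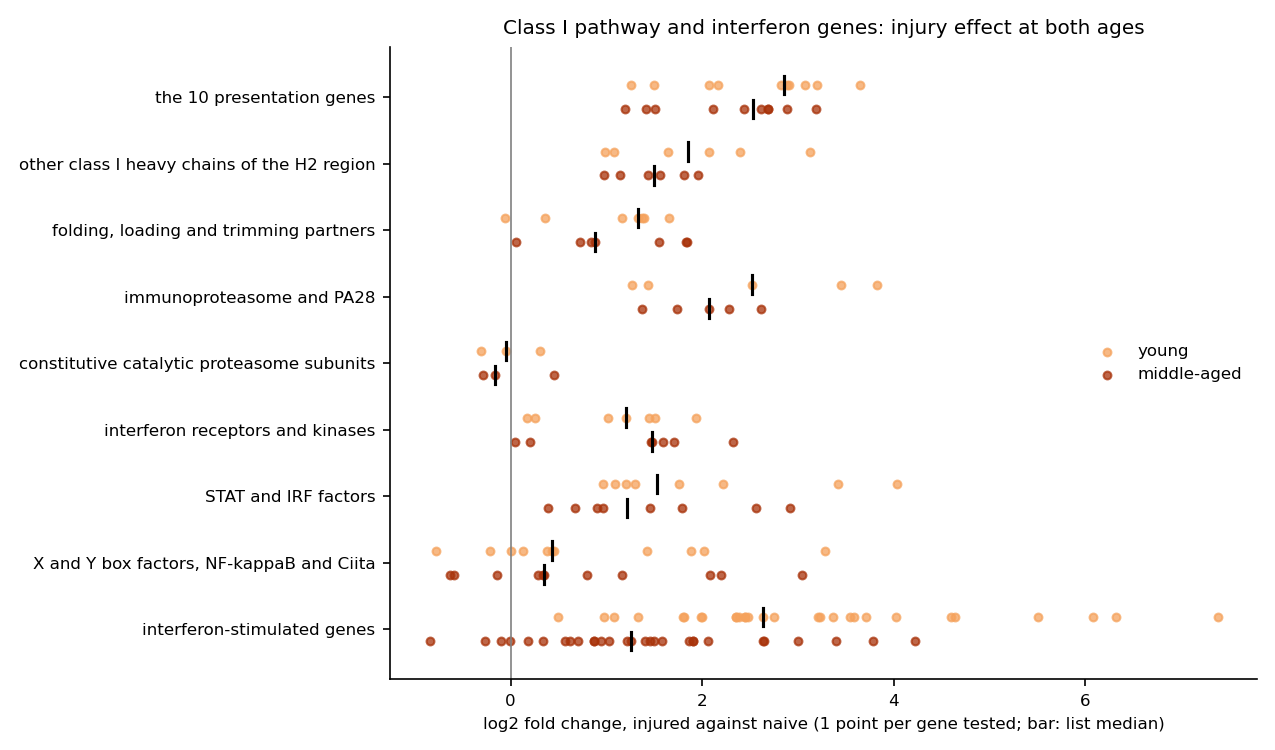
Log2 fold change of injured against naïve mice for the genes tested in 9 lists, with 1 point per gene and a black bar at each list's median, in young and middle-aged mice. The medians of the interferon-stimulated genes were 2.64 in young and 1.25 in middle-aged mice, and the constitutive catalytic proteasome subunits lie near 0.

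Signals and factors that act on class I promoters were listed as well. The interferon genes Ifnb1, Ifna1, Ifna2 and Ifna4 had 0 counts in every pool and Ifng had 1 count in a single young naïve pool, so their transcripts were not detectable at this depth. Of 7 interferon receptors and kinases, 5 were called higher with injury at both ages: Ifngr2 (1.93 in young mice), Ifnar2 (1.51), Ifngr1 (1.45), Ifnar1 (1.20) and Tyk2 (1.02). Jak1 (0.17) and Jak2 (0.25) were not called. Irf1, which binds IRF sites of class I promoters, rose by 2.22 (SE 0.31) in young and 1.79 (SE 0.30) in middle-aged mice. All 8 STAT and IRF genes were called higher with injury in young mice, and 7 of them at middle age, the largest being Irf8 (4.03 in young mice) and Irf7 (3.42), and Irf8 was the 1 called higher with age in naïve mice (1.26, adjusted p = 0.00359 from edgeR).

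Of 11 genes for X and Y box factors, NF-κB and Ciita, the class II transactivator, 6 were called higher and 1 lower in young mice, and 8 higher and 1 lower in middle-aged mice, or 7 higher and 2 lower there without middle-aged naïve replicate 1. The highest were Ciita (3.28 in young mice), at 0 to 3 counts in young naïve and 9 to 27 in young injured pools, Nfya (2.02), a Y box subunit, and Atf1 (1.88). The 1 called lower was Rfxap (-0.78), a subunit of the RFX complex that binds X boxes, and its partners Rfx5 (0.38) and Rfxank (-0.22) were not called in young mice. Nfkb1, an NF-κB subunit gene, rose by 1.42 and Rela by 0.46. The log2 fold change of Nlrc5 was above that of Ciita in young mice (3.65 against 3.28) and below it in middle-aged mice (2.44 against 3.04). The SE of Nlrc5 was 0.44 in young and 0.39 in middle-aged mice, and the gap to Ciita was not tested. Without middle-aged naïve replicate 1, the middle-aged value of Nlrc5 was 3.26, so this order depends on that pool.

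Interferon-stimulated genes showed the unequal naïve pools most plainly. Of 30, 29 were tested: 28 were called higher with injury in young mice, with a median of 2.64, and 18 in middle-aged mice, with a median of 1.25. Without middle-aged naïve replicate 1, 25 were called in middle-aged mice, with a median of 1.89. For the difference of injury effects, with all pools, edgeR called 0 of 29, at a median of -1.18. Of these, 17 had an unadjusted p under 0.05 by edgeR, and DESeq2 called 6 lower. In young mice the highest were Zbp1, at 0 to 2 counts in naïve and 153 to 324 in injured pools, Mx1 (6.32) and Cxcl10 (6.08), and the lowest called were Ifit2 (1.33), Cmpk2 (1.08) and Xaf1 (0.98). Summed over the 30 genes, injured pools stood at 732 to 1052 CPM in young and 597 to 857 CPM in middle-aged mice, and middle-aged naïve replicate 1, at 634 CPM, lay inside the range of the middle-aged injured pools. The 10 class I genes together summed to 289 CPM in that pool, beside 348 and 272 CPM in the other middle-aged naïve pools, 208 to 240 CPM in young naïve pools, 1120 to 1452 CPM in young injured and 1453 to 2183 CPM in middle-aged injured pools. It was the highest naïve pool for 3 of the 10 class I genes, Tap1, Nlrc5 and B2m, and replicate 2 was the highest for 6. Between ages in naïve mice 8 of 29 interferon-stimulated genes were called higher by edgeR, 20 had an unadjusted p under 0.05, DESeq2 called 14, and edgeR called 5 without replicate 1. In injured mice 0 were called by edgeR, 1 had an unadjusted p under 0.05 and DESeq2 called 0.

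**Figure D5:**
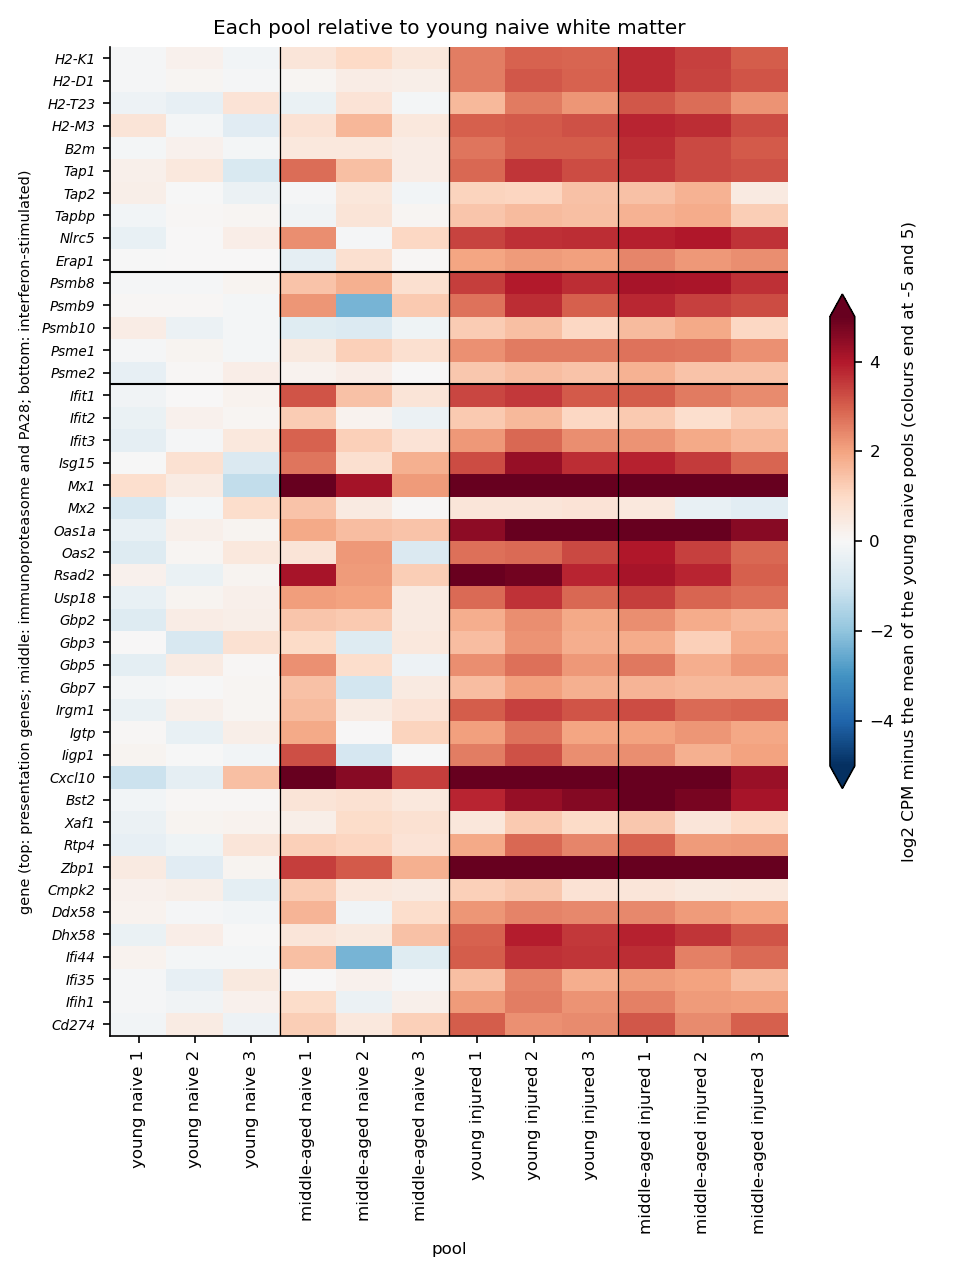
Log2 CPM of each pool minus the mean of the young naïve pools, in colour from -5 (blue) to 5 (red) with values beyond drawn at the end colours; rows are the 10 class I genes, 5 immunoproteasome and PA28 genes and 29 tested interferon-stimulated genes, and columns are the 12 pools. Middle-aged naïve replicate 1 is red for Tap1, Nlrc5 and many interferon-stimulated genes and pale for most other class I genes.

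Transcripts of T cells and NK cells were scarce, and the T cell markers below are not limited to T cells that read class I. In the naïve pools the T cell genes Cd3e and Cd8a had 0 or 1 counts, and in the injured pools Cd3e had 0 to 5 and Cd8a 1 to 8 counts. Summed over 8 T cell markers, levels were 2.08 to 4.70 CPM in naïve and 4.07 to 9.55 CPM in injured pools, and Cd4 was at 0 counts in all naïve and 11 to 42 in all injured pools. Of the 8, 5 had 0 counts in all young naïve pools and 4 in all middle-aged naïve pools. The highest count of a single marker there was 39 and 49. Of the 2 tested, 1 was called higher with injury at both ages. The other was not called, at -0.59 in young and -0.22 in middle-aged mice. Without middle-aged naïve replicate 1, 3 T cell markers passed the filter and 2 were called higher with injury in young mice. With all pools DESeq2 also called 2 higher in young mice. Of 7 NK cell markers, 2 passed the filter and both were called higher with injury at both ages: Klrd1, which encodes CD94, a partner in the receptor for Qa-1, had 0 to 2 counts in naïve and 16 to 28 in injured pools, and Klrk1, which encodes NKG2D, had 0 to 3 and 9 to 31 counts. Ncr1, the defining NK gene, had at most 5 counts. Pirb, a myeloid receptor that binds class I, stood at 0.638 to 1.54 CPM in naïve pools, 17.6, 21.8 and 19.6 CPM in young injured and 39.8, 32.4 and 26.8 CPM in middle-aged injured pools. It rose by 4.17 (SE 0.27) in young and 4.80 (SE 0.27) in middle-aged mice. Lilra5, also listed as a myeloid receptor of this family, had 0 or 1 counts in young naïve and 15 to 20 in young injured pools and was called higher at both ages.

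Other cell type markers moved beside the class I genes, and their part in the results was not tested. Of 6 monocyte markers, 6 were called higher with injury at both ages, and they summed to 19.4 to 25.7 CPM in young naïve, 85.6 to 116 CPM in middle-aged naïve, 5878 to 7482 CPM in young injured and 7501 to 8072 CPM in middle-aged injured pools. Of 6 microglia markers, 3 were called higher, among them Gpr34 (2.40) and Tmem119 (1.85), and 1 lower (Sall1, -0.69) in young mice, with a list median of 1.12. In middle-aged mice 2 were called higher and 2 lower, with a median of -0.13. In naïve mice, where H2-K1 was called with age, 4 of 6 pan-myeloid markers were called higher with age too: Cd68 (1.85), Tyrobp (1.25), Ptprc (1.17) and Itgam (1.11). So were 3 microglia markers, among them Siglech (1.13) and Gpr34 (0.99), and the monocyte markers Lyz2 (2.15), F13a1 (1.65) and Ccr2, at 0 counts in young and 1 to 11 in middle-aged naïve pools. Without middle-aged naïve replicate 1, Ccr2 was not called (adjusted p = 0.0684 from edgeR), and 4 microglia markers were. Of the oligodendrocyte markers 3, among them Mog (-0.93) and Cnp (-0.77), were called lower with age in naïve mice, where 1.78% of all genes were called lower. In injured mice 5 oligodendrocyte markers were called lower in middle-aged mice, where 0.908% of all genes were, among them Mbp (-0.99), Mag (-0.91), Mog (-0.81) and Cnp (-0.80), and pan-myeloid markers had 0 calls by edgeR, 2 unadjusted p under 0.05 and 0 calls by DESeq2. Monocyte markers in that comparison had 0 calls by edgeR, 4 of 6 unadjusted p under 0.05 and 2 calls higher by DESeq2, with a median of 0.88 and every middle-aged pool above every young pool for 3 of 6. Of 5 endothelial markers, which also carry class I in healthy tissue, Cdh5 (1.94) and Pecam1 (1.06) were called higher with injury in young mice. The other 3 were not called there, the lowest at -0.30. In middle-aged mice 2 endothelial markers were called higher and 1 lower with injury, with values from -0.47 to 1.98. Flt1 (0.53) was called higher with age in naïve mice, but not without middle-aged naïve replicate 1 (0.47, adjusted p = 0.0736 from edgeR). Fibroblast and mural markers had 4 called higher and 1 lower of 5 with injury in young mice, astrocyte markers 4 lower of 5, neuron markers 2 lower of 4, and dendritic cell markers 3 higher and 1 lower of 5. Of 5 neutrophil markers 2 were tested, and S100a8 was at 0 counts in all naïve and 10 to 23 in all injured pools.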

How the data were processed

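Total RNA of 12 pools, amplified during library building, was sequenced on an Illumina NextSeq500. The authors checked reads with FastQC 0.11.4, used TopHat 2.0.10 (aligner bowtie 1.1.2) on GRCm38, and deposited raw counts per gene from featureCounts, without normalization. The annotation release, strand setting and handling of shared reads are not given in the sources used here. Groups came from the sample labels, ages and times from the study's methods. Each row is an Ensembl gene identifier, and 935 of 46078 matched no gene symbol and stayed in the fit by identifier.

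From the counts, edgeR 4.0.16 in R 4.3.3 fitted 1 coefficient per group over all 12 pools (TMM, filterByExpr, quasi-likelihood F test), with Benjamini-Hochberg adjustment over 15866 genes and a threshold of 0.05. An SE was taken from F as |log2 fold change|/√F, intervals are at 95%, and log2 CPM used a prior count of 2. Exon lengths and overlaps came from GENCODE M21. On simulated counts for the injury contrast in young mice, 140 of 199 changed genes were recovered (70.4%) among 15541 genes, and 6.04% of calls were false. The simulation changed 200 genes in all, while 28.3% of genes were called higher and 26.3% lower in the real contrast. Its rates need not hold there. Pools of a group differed beyond counting noise (lowest chi-square per degree of freedom 7.48).

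Named are all 10 class I genes in every comparison, and of each list up to 3 called genes at either end of the injury effect in young mice, genes called in other comparisons where 5 or fewer were, and Irf1, Ifng, Ifnb1, Cd8a and Cd3e. A few genes this rule names are not reported here. Other genes named, such as Psmb5, Jak1, Fcgrt, Nfkb1, Ncr1 and Klrd1, were chosen after their values were seen. The genes and lists were chosen with earlier results of these data known. Alternatives were DESeq2 1.42.0, other scalings and filters, the replicate number as a block, the compared pools alone, and each pool left out. Lilrb4a was not matched.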

Additional observations from a re-analysis of the deposited data

Results flagged for a closer look

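Among the listed genes, edgeR's test of the difference itself called 2 monocyte markers that moved beside the class I genes. In the same comparison DESeq2 called lower 6 interferon-stimulated genes, 3 monocyte markers, 2 microglia markers, 1 pan-myeloid marker and 1 STAT or IRF gene. By edgeR, 17 of 29 interferon-stimulated genes and 5 of 6 microglia markers had an unadjusted p under 0.05 and were not called. For Lyz2 the middle-aged effect was 1.89 lower on the log2 scale, a difference of -1.89 (SE 0.21, adjusted p = 0.00275), with effects of 8.15 in young and 6.26 in middle-aged mice. For F13a1 the difference was -1.70 (SE 0.29, adjusted p = 0.0340), with effects of 7.001 and 5.30. For both, the age difference was larger in naïve pools (2.15 and 1.65) than in injured pools (0.27 and -0.05).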

How the results depend on the processing

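For injury in young mice, all 210 recomputed values of the 10 genes kept their direction and call, and in middle-aged mice 209 of 210 did, with 9 to 10 genes called as single pools were left out. The count of genes called with age in naïve mice, 1, became 3 without a filter, 3 by DESeq2 and 0 with only the naïve pools fitted, and 0 to 2 as single pools were left out. The count in injured mice, 0, became 2 without a filter and 2 by DESeq2, and that for the difference of injury effects, 0, became 1 without a filter (Tap1). The replicate numbers did not pair the pools: same-numbered pools' deviations correlated at -0.113 to 0.153, with 2 of 18 pairs over 0.1. With the replicate block 10, 10, 1, 0 and 0 genes were called for the 5 comparisons, as without it, and the age difference of Tap2 in injured mice turned to -0.000712. With library totals alone the difference of injury effects of Erap1 turned to -0.0356, and the median of all genes shifted by 0.197 for injury in young mice. As single pools were left out, the age difference in naïve mice ranged from -0.28 to 0.49 for H2-T23, -0.13 to 0.31 for Tap2, -0.0357 to 0.38 for Tapbp and -0.17 to 0.47 for Erap1. In injured mice it ranged from -0.0438 to 0.30 for Tap1 and -0.19 to 0.38 for Tap2. The difference of injury effects ranged from -0.32 to 0.0354 for H2-K1, -0.21 to 0.11 for B2m, -0.34 to 0.24 for Tap2, -0.24 to 0.17 for Tapbp and -0.21 to 0.43 for Erap1. The H2-K1 to H2-D1 log2 ratio ranged from -0.33 to -0.24. The cause of these changes was not tested. Depth limits the interferon, T cell and NK cell genes, most of which had 5 counts or fewer in naïve pools.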
